A study of Mus musculus with 21 samples.

Results

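The genes described here were the 41 of 14273 in the expression table whose symbols begin with Psma, Psmb, Psmc, Psmd or Psme followed by a number, leaving out the 3 inducible catalytic subunits Psmb8, Psmb9 and Psmb10. Of the 41, 31 encode subunits of the constitutive 26S proteasome and are called core subunits below. They are 7 alpha and 7 beta subunits of the 20S core particle, and 6 ATPases and 11 non-ATPase subunits of the 19S regulatory particle. The 19S subunits Adrm1 and Shfm1 lie outside the naming pattern and are not among the 31. The other 10 of the 41 are not built into every proteasome. They were 3 chaperones of 19S base assembly (Psmd5, Psmd9 and Psmd10), 4 activator genes (Psme1 to Psme4) and 3 genes that the naming pattern takes in although they are not constitutive subunits. Of those last 3, Psma8 encodes an alpha subunit of the testis, Psmc3ip a cofactor of meiotic recombination, and Psme2b is an annotated single-exon near copy of Psme2. Psme1 and Psme2 are themselves induced by interferon gamma, so the label of a constitutive set held for the 31 core subunits and not for all 41 genes.

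The proteasome degrades proteins that have been tagged with ubiquitin. The 20S core is a barrel of alpha and beta rings that holds the catalytic sites of Psmb5, Psmb6 and Psmb7 on its inside, and the 19S particle binds, unfolds and feeds in the tagged substrate. Activators can take the place of the 19S particle: Psme1 and Psme2 form the cytosolic PA28 alpha-beta complex linked to antigen processing, Psme3 forms the nuclear PA28 gamma complex, and Psme4 encodes PA200. Maturing red cells rely on ubiquitin and the proteasome to clear most of their proteins before the proteasome itself declines.

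The libraries were made from RNA of cells sorted out of C57BL/6 spleens, 3 libraries for each of 7 groups. Tumor-bearing, anemic and neonatal mice each gave CD45+Ter119+CD71+ cells and CD45-Ter119+CD71+ cells, and tumor-bearing mice also gave CD11b+Gr1+ myeloid-derived suppressor cells (MDSC). Ter119 is an antigen of erythroid cells, CD71 is the transferrin receptor of erythroid precursors, and CD45 is a phosphatase of leukocytes that erythroid cells lose as they mature. The comparisons set CD45+ against CD45- cells, one state against another, and both tumor cell types against MDSC. The kind of tumor, the cause of the anemia, the ages and the treatment of the animals are not given in the labels used here, and neither is whether the 3 libraries of a group came from separate animals, so that p-values measure the spread between libraries, which may be technical. The extraction text of the labels speaks of retinas, whereas the tissue label is spleen.

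Levels are linear values (2 to the power of the log2 values in the table) whose unit is not stated. Because the depth of sequencing is unknown, values carry no counting interval, and levels are compared for one gene across groups and not between genes. Summed values ran from 227942 to 349254 per library, and haemoglobin genes took from 0.0264% to 46.2% of them, the lowest share of each group being in replicate 3. All 10 erythroid markers in the table had a value in every library, and their summed level was 12488 to 18511 in tumor CD45+ against 57858 to 167724 in tumor CD45- libraries, 3075 to 37798 in anemia CD45+ against 29648 to 133796 in anemia CD45- libraries, and 6448 to 24400 in neonatal CD45+ against 80316 to 137182 in neonatal CD45- libraries. All 10 neutrophil granule markers rose in CD45+ cells in each state, and their summed level was 11352 to 29584 against 33.3 to 373.0 in tumor, 541.6 to 2860 against 9.73 to 15.2 in anemia, and 9554 to 11943 against 125 to 216 in neonatal libraries. All 6 B cell markers rose too, with sums of 629 to 776 in anemia CD45+ against 1.64 to 8.92 in anemia CD45- libraries. Of 8 T and NK cell markers 7, 8 and 6 rose in tumor, anemia and neonatal CD45+ cells, with sums of 135 to 223 in anemia CD45+ against 3.94 to 7.36 in anemia CD45- libraries. Of 6 monocyte and macrophage markers 5, 5 and 6 rose, with sums of 229 to 1150 in tumor CD45+ against 16.4 to 52.7 in tumor CD45- libraries. Of 6 markers of dividing cells 5, 6 and 3 fell, with sums of 239 to 700.2 in the CD45+ libraries of all states against 1750 to 1990 in the CD45- libraries. In bulk samples fewer cells of a type and less RNA per cell cannot be told apart, and the part of these cell types and of the haemoglobin share in the differences below was not tested. All 41 genes were in the table, 40 passed the filter on low values, and Psma8 did not, at 0.0841 to 1.33 in all libraries.

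The annotated promoters of Psme3, Psme1, Psme2, Psmd9 and Psmb5 are shown as examples of genes that moved in opposite directions. In CD45+ against CD45- cells Psme1 and Psme2 rose and Psme3 and Psmd9 fell in every state. Psmb5 rose in neonates only. Each line gives the 300 bases around the annotated start, from 250 bases before it to 50 bases after it, on the strand of the gene, from RefSeq on GRCm38.p6, which is a later build than the mm8 used by the authors. Capitals mark matches on either strand to the antioxidant response element core TGACNNNGC, the interferon response element core (GAAA, any 2 bases, GAAA) or the CCAAT box. The lines are Psme3 (chr11:101315963-101316262, plus strand), Psme1 (chr14:55578244-55578543, plus strand), the first of 2 annotated windows of Psme2 (chr14:55590972-55591271, minus strand), Psmd9 (chr5:123227940-123228239, plus strand) and Psmb5 (chr14:54617946-54618245, minus strand).
Psme3: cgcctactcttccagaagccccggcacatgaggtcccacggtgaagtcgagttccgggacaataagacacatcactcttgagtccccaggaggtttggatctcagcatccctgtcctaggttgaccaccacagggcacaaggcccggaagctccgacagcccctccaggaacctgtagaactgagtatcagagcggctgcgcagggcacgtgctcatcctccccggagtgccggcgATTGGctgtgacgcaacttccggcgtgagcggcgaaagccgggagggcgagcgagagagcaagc
Psme1: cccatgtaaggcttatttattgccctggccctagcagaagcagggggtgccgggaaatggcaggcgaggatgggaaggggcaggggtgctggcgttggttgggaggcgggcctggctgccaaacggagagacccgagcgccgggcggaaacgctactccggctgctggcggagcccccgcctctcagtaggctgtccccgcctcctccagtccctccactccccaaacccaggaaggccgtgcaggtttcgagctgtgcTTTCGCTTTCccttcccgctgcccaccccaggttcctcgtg
Psme2: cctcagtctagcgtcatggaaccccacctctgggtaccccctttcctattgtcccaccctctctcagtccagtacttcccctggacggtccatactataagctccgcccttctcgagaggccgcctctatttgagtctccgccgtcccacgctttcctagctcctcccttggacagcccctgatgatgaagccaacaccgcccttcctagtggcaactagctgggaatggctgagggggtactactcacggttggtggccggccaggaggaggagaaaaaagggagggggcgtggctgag
Psmd9: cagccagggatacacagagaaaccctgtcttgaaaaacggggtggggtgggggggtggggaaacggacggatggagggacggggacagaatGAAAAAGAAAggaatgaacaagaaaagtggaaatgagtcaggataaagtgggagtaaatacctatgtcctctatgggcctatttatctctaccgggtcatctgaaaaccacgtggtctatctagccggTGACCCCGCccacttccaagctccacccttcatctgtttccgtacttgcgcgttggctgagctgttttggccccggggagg
Psmb5: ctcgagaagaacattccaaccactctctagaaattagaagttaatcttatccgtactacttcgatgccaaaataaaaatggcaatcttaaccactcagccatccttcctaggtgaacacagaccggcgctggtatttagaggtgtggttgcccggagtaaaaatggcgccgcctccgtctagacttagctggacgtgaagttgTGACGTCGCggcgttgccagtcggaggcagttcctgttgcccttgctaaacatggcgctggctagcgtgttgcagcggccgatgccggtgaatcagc

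Psme3 held a CCAAT box at position 237 of its window, on the opposite strand, and neither of the other elements. Psme1 held the interferon element core at position 260, and Psme2 held none of the 3 in the printed window. Psmd9 held the interferon element core at position 92 and the antioxidant element core at position 220. Psmb5 held the antioxidant element core at position 204, which the Psmb6 window also held, at position 242. Promoters were matched for 34 of the 41 genes in 37 windows. The antioxidant element core was in 16.2% of these windows against 12.4% of 32851 annotated promoters, the interferon element core in 10.8% against 3.44%, and the CCAAT box in 35.1% against 37.4%. The interferon element matches were those of Psmb3, Psmd4, Psmd9 and Psme1. In counts the elements were in only 6, 4 and 13 of the 37 matched windows. The erythroid factor motifs GATAA and CCNCNCCC, some of whose letters can overlap with other motifs, were in 21.6% and 51.4% of these windows against 25.4% and 49.5% of all. A match describes letters in the window only.

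The first question was how the proteasome genes differ between CD45+ and CD45- cells of the Ter119+CD71+ sort. Psme3 fell in CD45+ cells in all 3 states, while Psme1 and Psme2 rose in all 3, and the fourth activator, Psme4, did not pass the test in any. In tumor-bearing mice 4 of the 40 tested genes rose, against 50.2% of all 11192 genes tested, and 2 fell, against 10.9%. In anemia 3 rose, against 47.4%, and 6 fell, against 11.3%. In neonates 7 rose, against 49.6%, and 2 fell, against 10.3%. Calls are those of limma's moderated test at a Benjamini-Hochberg adjusted p under 0.05 over all tested genes. In each state a far smaller part of these 40 genes than of all genes was called higher.

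Psme3 stood at 36.8, 45.7 and 81.3 in tumor CD45+ libraries, against 165.9, 170.7 and 211.0 in tumor CD45- libraries. In anemia it was 61.7, 48.7 and 31.9 in CD45+ against 175.2, 161.0 and 194.3 in CD45- libraries, and in neonates 31.3, 35.7 and 58.5 in CD45+ against 210.0, 103.3 and 294.9 in CD45- libraries. No CD45+ library of any state reached the lowest CD45- library. The log2 fold changes were -1.80, -1.92 and -2.18 in tumor, anemia and neonatal mice (SE 0.38 each), with limma adjusted p = 6.06e-04, 3.48e-04 and 1.12e-04. In each state the call held in all 27 alternatives, with log2 fold changes between -3.10 and -1.56 and adjusted p of at most 0.00476.

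Psme1 stood at 57.8, 53.1 and 65.2 in tumor CD45+ libraries, against 13.8, 18.8 and 36.0 in tumor CD45- libraries. In anemia it was 76.7, 81.2 and 76.2 in CD45+ against 20.3, 23.4 and 46.6 in CD45- libraries, and in neonates 80.2, 85.6 and 87.3 in CD45+ against 24.2, 24.3 and 19.2 in CD45- libraries. All CD45+ libraries lay above all CD45- libraries, whatever the state. Psme1 rose by 1.43, 1.44 and 1.86 log2 units (SE 0.32 each; adjusted p = 9.33e-04, 8.92e-04 and 8.87e-05).

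Psme2, its partner in the same complex, stood at 32.6, 30.8 and 41.0 in tumor CD45+ libraries, against 8.46, 13.2 and 21.4 in tumor CD45- libraries. In anemia it was 54.2, 62.4 and 56.7 in CD45+ against 18.6, 18.4 and 29.2 in CD45- libraries, and in neonates 57.2, 45.0 and 46.9 in CD45+ against 20.7, 18.9 and 13.9 in CD45- libraries. The CD45+ and CD45- libraries were separate in each state. It rose by 1.30, 1.38 and 1.44 log2 units (SE 0.29 each; adjusted p = 8.72e-04, 5.40e-04 and 3.81e-04). The rises of this pair depended on scaling. With median-ratio scaling Psme1 was 0.50 log2 units higher in tumor CD45+ cells (adjusted p = 0.0548). Psme2 was then 0.39, 0.51 and 0.53 higher in tumor, anemia and neonatal CD45+ cells (adjusted p = 0.142, 0.0573 and 0.0506). The Psme1 calls in anemia and neonates held in all 27 alternatives, with lowest log2 fold changes of 0.57 and 0.95. Their largest adjusted p were 0.0314 and 0.00127. The exons of Psme1 overlap those of Emc9 on the opposite strand, and whether counting used strand is not given in the sources used here.

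Psme4 did not pass the test in any state. It stood at 32.5, 26.5 and 39.2 in tumor CD45+ against 36.3, 31.3 and 61.1 in tumor CD45- libraries. In anemia it stood at 33.3, 25.6 and 38.3 in anemia CD45+ against 40.7, 38.9 and 48.6 in anemia CD45- libraries, and in neonates at 40.1, 48.9 and 45.7 in neonatal CD45+ against 40.6, 38.7 and 61.3 in neonatal CD45- libraries. Libraries overlapped in tumor and neonatal mice, and in anemia the highest CD45+ library lay just below the lowest CD45- library. The log2 fold changes were -0.34, -0.40 and -0.04 (SE 0.27 each; adjusted p = 0.290, 0.220 and 0.916).

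**Figure D1:**
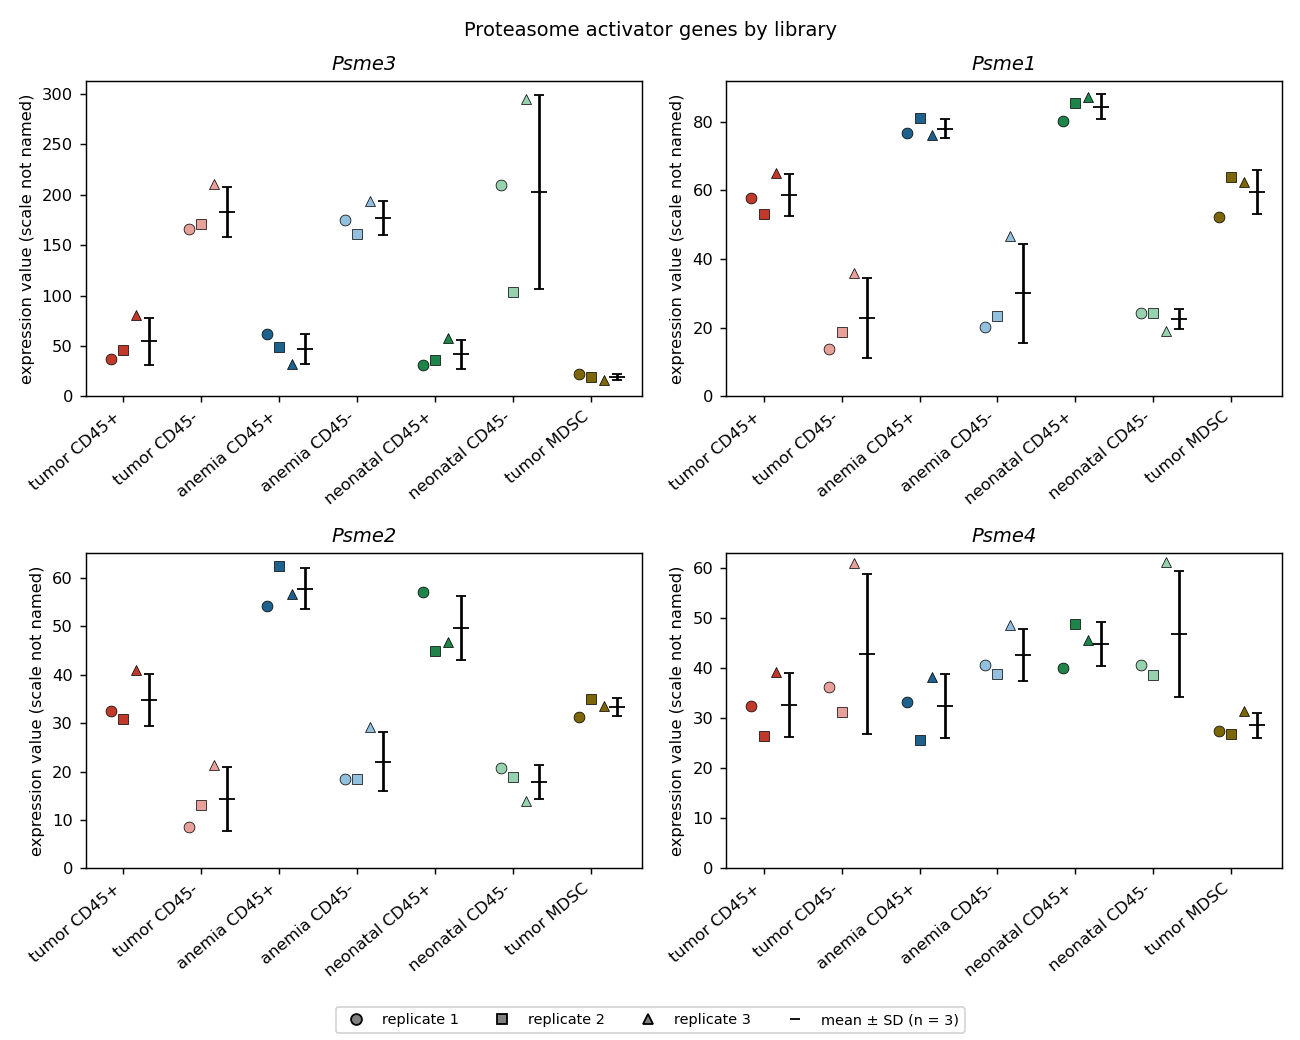
Expression values of Psme3, Psme1, Psme2 and Psme4 in each of the 21 libraries by group, with symbols for replicates and the mean ± SD of 3 libraries; the scale is linear and its unit is not named. Psme3 lies between 31.3 and 81.3 in CD45+ libraries and between 103.3 and 294.9 in CD45- libraries, Psme1 and Psme2 lie the other way, and the Psme4 libraries overlap in tumor and neonatal mice and are barely apart in anemia.

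A ratio of genes within a library does not depend on how libraries are scaled to each other. The log2 ratio of Psme3 to Psme1 was -0.65, -0.22 and 0.32 in tumor CD45+ libraries, against 3.59, 3.18 and 2.55 in tumor CD45- libraries. Its mean was -0.77 ± 0.47 in anemia CD45+ and 2.65 ± 0.54 in anemia CD45- libraries, and -1.07 ± 0.43 in neonatal CD45+ and 3.05 ± 0.93 in neonatal CD45- libraries (SD, n = 3 each). The mean differences were -3.29, -3.42 and -4.11 log2 units, without overlap of libraries in any state. With 3 libraries against 3 no exact permutation test can go below p = 0.1, so these ratios are given as values without a test.

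With the values as deposited, the median core subunit lay below the median gene in each state. Of the 31, 2 rose and 0 fell in tumor, 0 rose and 2 fell in anemia, and 5 rose and 0 fell in neonatal CD45+ cells. Their median log2 fold changes were 0.11, -0.16 and 0.31, against medians of all tested genes of 0.75, 0.68 and 0.75. They thus lay 0.64, 0.84 and 0.44 log2 units below the median gene. The direction of the core subunits depended on scaling, as did their distance from the median gene. With median-ratio scaling the medians of all genes were 0.06, 0.04 and 0.06, those of the core subunits -0.83, -1.01 and -0.60, and 0 core subunits rose and 20, 24 and 14 fell in the 3 states. With quantile normalization 2, 0 and 4 rose and 4, 6 and 1 fell, and the core median lay 0.00, -0.40 and 0.03 log2 units from the median gene. With haemoglobin genes left out of the library sum 1, 0 and 4 rose and 5, 6 and 1 fell. The shares of all tested genes called under these scalings are not given here, so these counts are not set against a background. No direction of the core subunits as a whole between CD45+ and CD45- cells is therefore given.

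The summed level of the 31 core subunits overlapped between CD45+ and CD45- libraries in every state. It was 1579, 1495 and 1012 in tumor CD45+ against 1044, 1176 and 1471 in tumor CD45- libraries. In anemia it was 966, 989 and 1019 in CD45+ against 813, 911 and 1863 in CD45- libraries. In neonates it was 1428, 1664 and 1367 in CD45+ against 1248, 1369.5 and 911 in CD45- libraries. Replicate 3 stood apart: in tumor it was the lowest CD45+ and the highest CD45- library, and in anemia CD45- it was far above the other libraries.

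**Figure D2:**
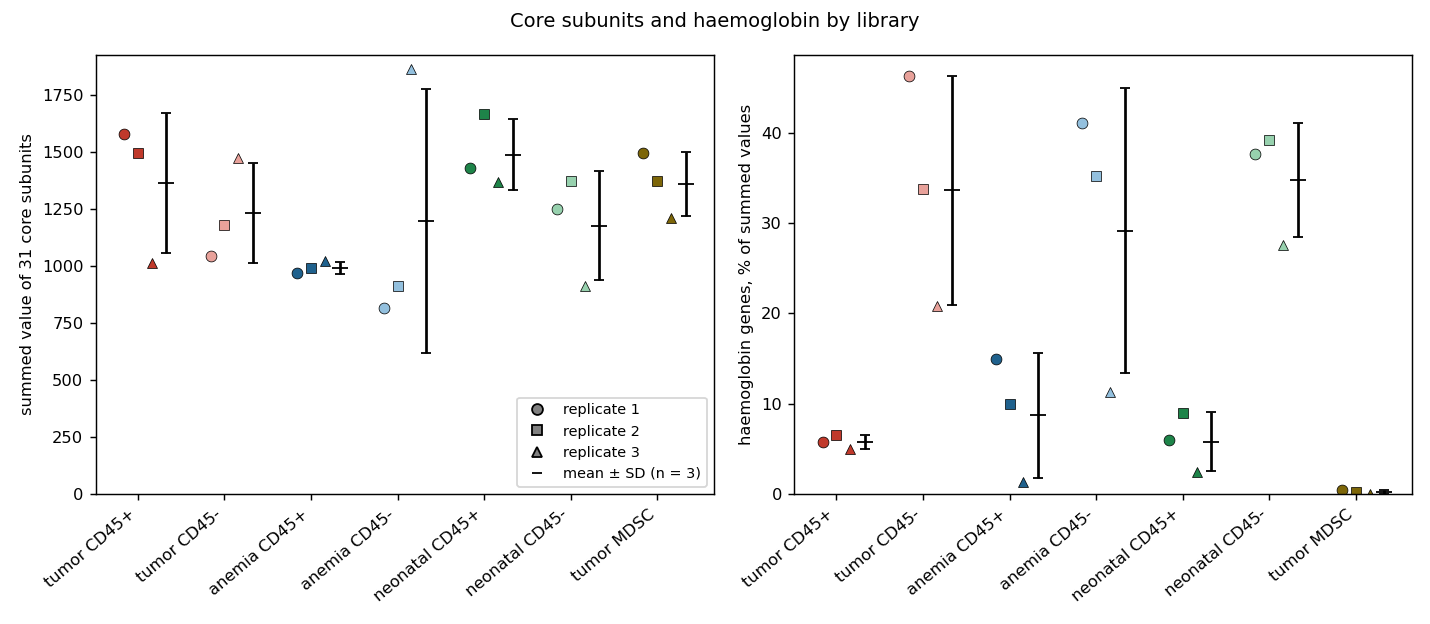
Summed expression value of the 31 core subunits (left) and haemoglobin genes as a percentage of all summed values (right) in each library by group, with mean ± SD of 3 libraries. Core sums of CD45+ and CD45- libraries overlap in each state, replicate 3 reaches 1863 in anemia CD45- cells, and haemoglobin shares are 20.8% to 46.2% in tumor CD45- libraries against 4.96% to 6.52% in tumor CD45+ libraries.

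Without replicate 3 of every group, an alternative chosen after the data were seen, 14 core subunits rose and 0 fell in tumor, 9 rose and 3 fell in anemia, and 10 rose and 2 fell in neonatal CD45+ cells. The counts for all 40 tested genes were then 16 higher and 1 lower, 12 and 7, and 12 and 5. The shares of all tested genes in this setting are not given here, so these counts are not set against a background. The core medians were then 0.48, 0.22 and 0.12, so that the sign in anemia turned.

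Within the core the medians of the 20S and 19S particles parted, though not every subunit followed its particle. All 7 alpha subunits had positive log2 fold changes in tumor and neonatal mice, from 0.05 (Psma1) to 1.06 (Psma6) and from 0.13 (Psma5) to 1.10 (Psma7), and 4 of 7 in anemia. Their medians were 0.48, 0.24 and 0.67 in tumor, anemia and neonatal mice, and those of the beta subunits were 0.37, 0.08 and 0.81. The 19S ATPases had medians of -0.30, -0.51 and 0.04, and the 19S non-ATPases of -0.05, -0.25 and 0.11.

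Psma6 rose in tumor and neonatal CD45+ cells. It stood at 75.2, 80.7 and 54.3 in tumor CD45+ against 27.9, 28.1 and 44.1 in tumor CD45- libraries (log2 fold change 1.06, SE 0.33, adjusted p = 0.0112). In neonates it stood at 71.3, 80.7 and 76.5 in CD45+ against 39.7, 38.0 and 30.7 in CD45- libraries (1.06, SE 0.33, adjusted p = 0.0114). In anemia its libraries overlapped, at 29.8, 33.3 and 42.8 in CD45+ against 19.7, 19.3 and 55.6 in CD45- libraries (0.32, SE 0.33, adjusted p = 0.431), the highest CD45- value again being that of replicate 3.

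Psma7, another alpha subunit, rose by 0.84 in tumor and by 1.10 in neonatal CD45+ cells (adjusted p = 0.0261 and 0.00540). In neonates Psma4 of the alpha ring rose by 1.10 (adjusted p = 0.0358), Psmb2 of the beta ring by 0.94 (adjusted p = 0.0139), and Psmb5, which carries the chymotrypsin-like site, by 1.43 (SE 0.37, adjusted p = 0.00295). Psmb5 stood at 30.8, 30.0 and 23.6 in neonatal CD45+ against 9.88, 9.08 and 10.3 in neonatal CD45- libraries. Psmb2 stood at 49.8, 54.2 and 53.4 in neonatal CD45+ against 29.5, 32.3 and 20.4 in neonatal CD45- libraries, also without overlap. In the other states the Psmb5 libraries overlapped, at 20.6, 18.2 and 8.22 in tumor CD45+ against 10.1, 13.2 and 9.55 in tumor CD45- libraries, and at 18.6, 11.5 and 8.09 in anemia CD45+ against 6.23, 17.7 and 14.0 in anemia CD45- libraries. Median-ratio scaling ended each of these 20S calls, with log2 fold changes between -0.10 (Psma7 in tumor) and 0.55 (Psmb5 in neonates). With haemoglobin genes left out of the library sum Psma7 in tumor (adjusted p = 0.119) and Psma4 in neonates (0.0773) no longer passed, and quantile normalization ended the call of Psmb5 (0.0811). Leaving out tumor CD45+ replicate 1 or 2 or tumor CD45- replicate 1 ended the call of Psma7 in tumor. Likewise calls were lost for Psma4 without neonatal CD45+ replicate 1 or 3 or any neonatal CD45- replicate, and for Psmb2 without neonatal CD45- replicate 3. The highest adjusted p among these was 0.125 for Psma7, 0.116 for Psma4 and 0.0660 for Psmb2.

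Of the 19S subunits 2 were called, both in anemia. Psmc3, an ATPase of the base, stood at 39.1, 38.4 and 33.8 in anemia CD45+ against 51.5, 54.8 and 95.8 in anemia CD45- libraries (log2 fold change -0.79, SE 0.32, adjusted p = 0.0453). Psmd1, the large scaffold subunit of the base, stood at 25.3, 27.2 and 30.9 in anemia CD45+ against 38.7, 38.7 and 75.1 in anemia CD45- libraries (-0.78, SE 0.28, adjusted p = 0.0218). The groups of libraries were separate for both genes. The call of Psmc3 ended in 10 of 27 alternatives and that of Psmd1 in 3, and both ended without anemia CD45- replicate 3, at -0.51 for Psmc3 (adjusted p = 0.180) and -0.47 for Psmd1 (0.105). Both also ended without anemia CD45+ replicate 1 or 2, Psmd1 at adjusted p = 0.0668 and 0.0537. The exons of Psmc3 overlap those of Slc39a13 on the opposite strand, and those of Psmd1 overlap Gm21972 on the same strand. Exons of Psma4 (AY074887), Psmb7 (Nek6) and Psmc3ip (Mlx) also overlap another gene on the opposite strand. Those of Psmb5 (Mir686) and Psme2b (9930111J21Rik1) do so on the same strand.

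**Figure D3:**
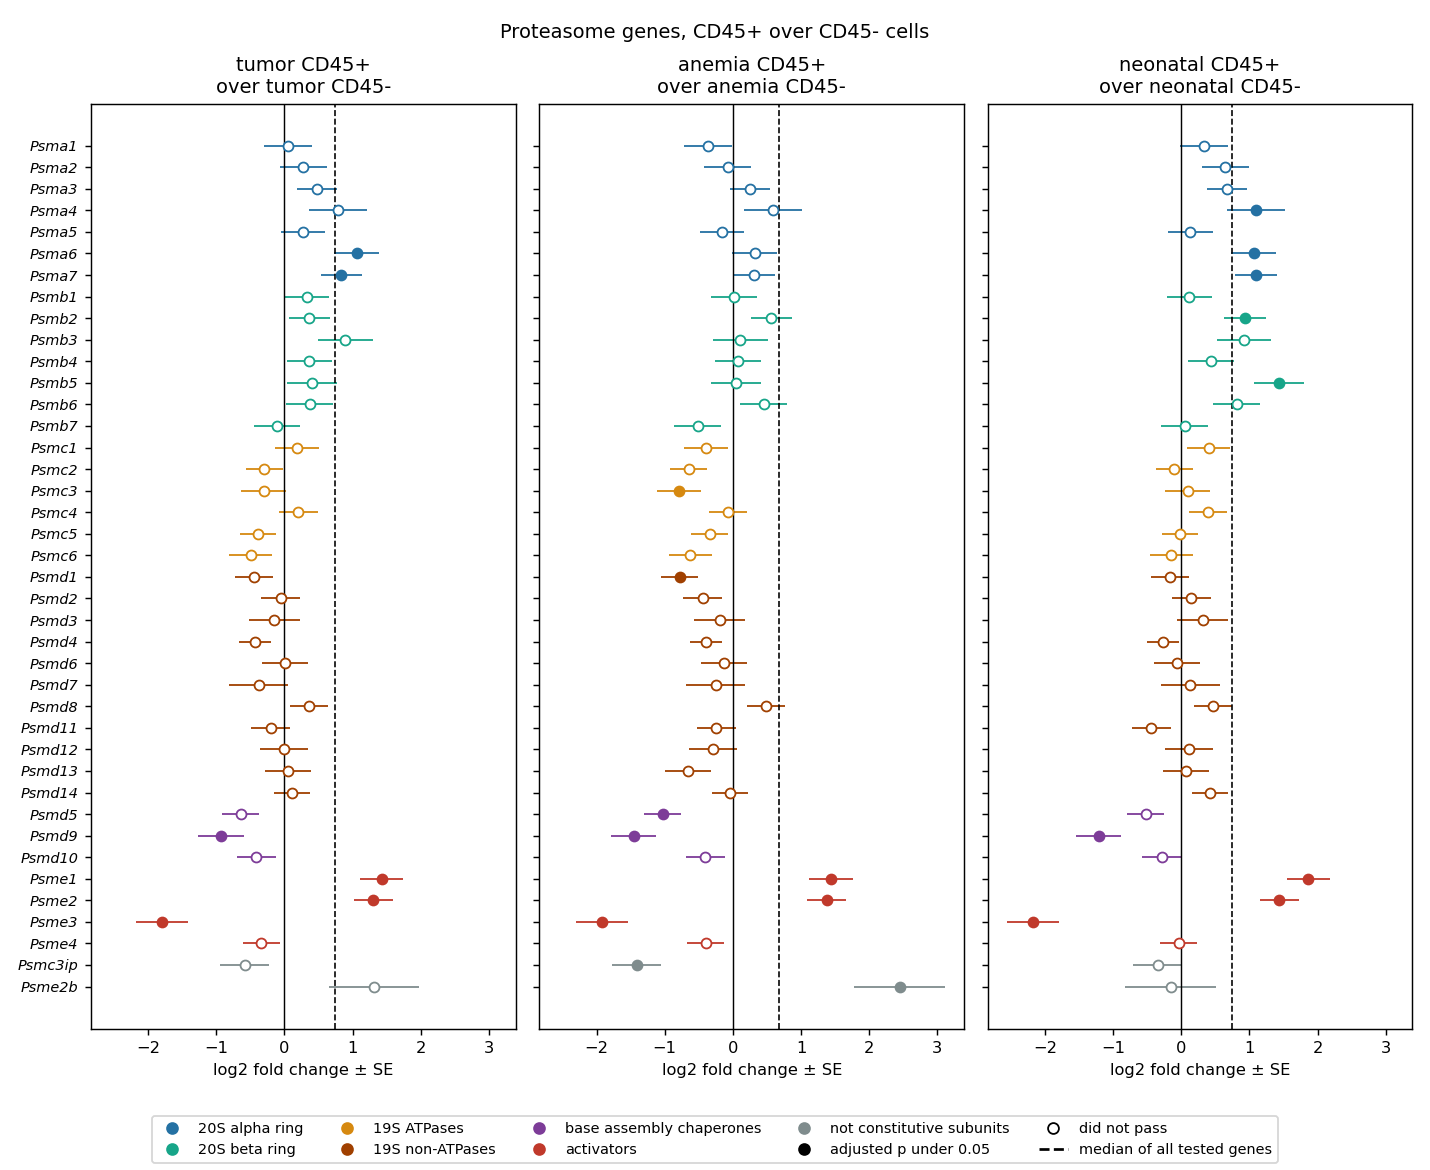
Log2 fold change ± SE of the 40 tested genes in CD45+ over CD45- cells, by state, coloured by role; filled points passed at an adjusted p under 0.05 and the dashed line is the median of all tested genes (0.75, 0.68 and 0.75). Psme3 lies far left and Psme1 and Psme2 right in each panel, and most core subunits lie left of the dashed line.

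The parting of the 20S and 19S medians was seen within libraries. The log2 ratio of the median 20S value to the median 19S value was 0.36, 0.29 and 0.46 in tumor CD45+ libraries, against -0.27, -0.31 and -0.25 in tumor CD45- libraries. In anemia it was 0.38, 0.39 and 0.40 in CD45+ against -0.32, -0.22 and 0.08 in CD45- libraries, and in neonates 0.32, 0.57 and 0.62 in CD45+ against -0.18, -0.33 and -0.28 in CD45- libraries. In MDSC it was 0.40, 0.45 and 0.43. All 12 CD45+ and MDSC libraries lay above all 9 CD45- libraries, replicate 3 included. The mean difference between CD45+ and CD45- libraries was 0.65, 0.55 and 0.77 log2 units in tumor, anemia and neonatal mice. The ratio itself carries the lengths of the transcripts and has no meaning as a stoichiometry, and no test is given for it, since it is a score over genes chosen with results known.

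Gene by gene, the level of each core subunit was set against the median of the 31 in its own library. All CD45+ libraries lay above all CD45- libraries for 6, 6 and 8 core subunits in tumor, anemia and neonatal mice, and below them for 6, 8 and 7. The share of all genes whose libraries part on this scale was not computed, so these counts have no background beside them. Psma3, Psma6, Psma7 and Psmb2 were above in all 3 states, and Psmc2, Psmc5, Psmc6 and Psmd1 were below in all 3. Thus the 4 that were above belong to the 20S and the 4 that were below to the 19S particle. Psmb7, the 20S subunit with the trypsin-like site, did not follow its ring, with mean differences of -0.24, -0.40 and -0.27. The 19S subunit Psmd8 did not follow its particle, with 0.25, 0.63 and 0.16. Other subunits departed in some or all states. Centred on its mean over the groups, the 19S ATPase Psmc4 had CD45+ group means of 0.06, 0.02 and -0.06. Its CD45- group means were -0.03, -0.03 and -0.15 in the same states. The alpha subunit Psma1 had -0.06, -0.06 and -0.15 in CD45+ against 0.01, 0.18 and -0.17 in CD45- group means. Psmb4, Psmd14, Psma5 and Psmc1 varied least over the 7 groups, with a span between group means of 0.28 to 0.32 log2 units, and Psma6, Psmb5 and Psmd11 most, with 1.40, 1.20 and 1.02.

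**Figure D4:**
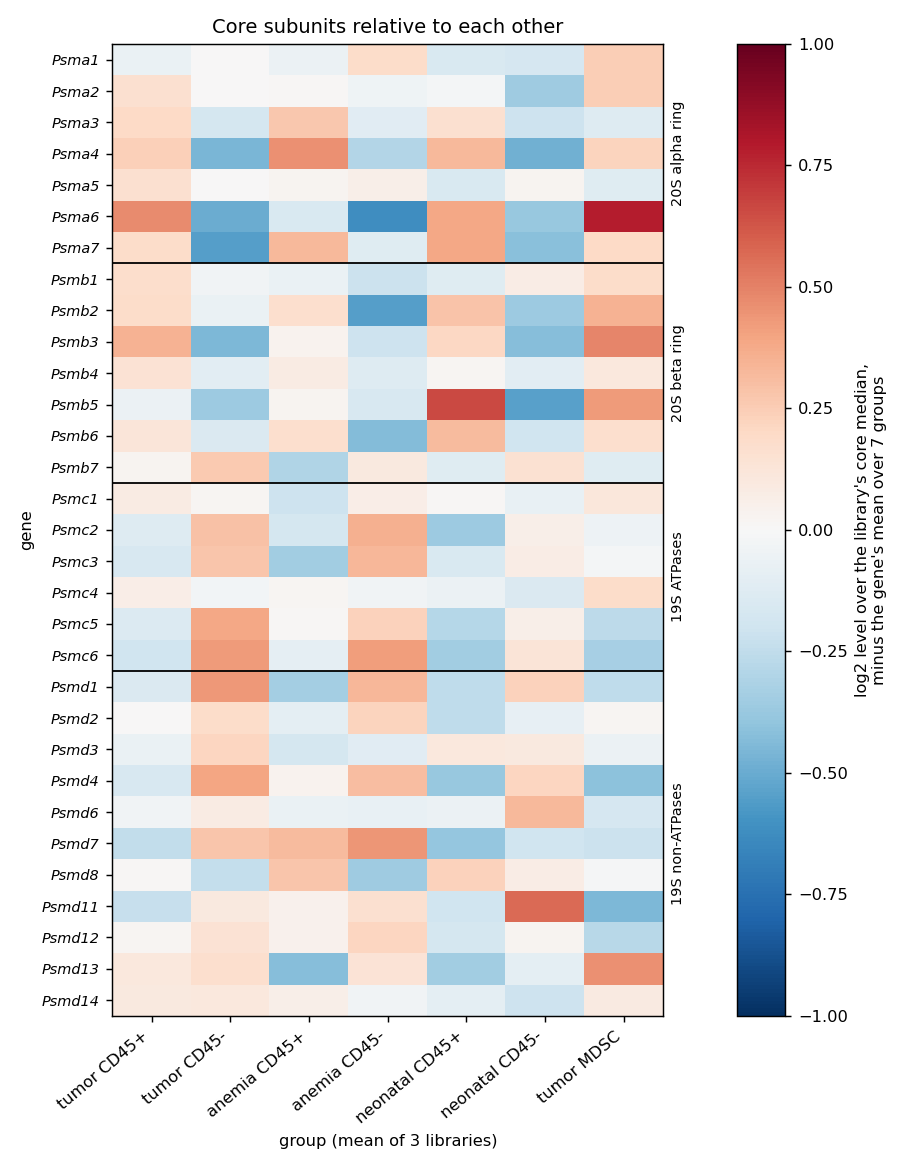
Level of each core subunit relative to the median core subunit of its library (log2, mean of 3 libraries per group), minus the mean of that gene over the 7 groups. Several 20S genes (Psma4, Psma6, Psma7, Psmb2, Psmb3) are red in CD45+ and MDSC columns and blue in CD45- columns, with Psma6 blue in both anemia columns, while Psmc2, Psmc5, Psmc6, Psmd1 and Psmd4 tend the other way.

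For the 3 catalytic positions the inducible subunits, which replace their constitutive partners in the immunoproteasome, gave a reference. The log2 ratio of Psmb8 to Psmb5 was 0.41, 0.61 and 2.15 in tumor CD45+ against -3.94, -3.72 and -2.81 in tumor CD45- libraries, and its mean differed by 4.54, 4.30 and 2.36 in tumor, anemia and neonatal mice. The ratio of Psmb9 to Psmb6 differed by 3.10, 3.13 and 2.95, and that of Psmb10 to Psmb7 by 3.36, 3.30 and 2.94. In each state and for each pair the CD45+ libraries lay above the CD45- libraries. The constitutive partners differed far less, with log2 fold changes of 0.40, 0.04 and 1.43 for Psmb5, 0.37, 0.45 and 0.81 for Psmb6, and -0.11, -0.52 and 0.05 for Psmb7, of which only Psmb5 in neonates passed. Psmb6, with the caspase-like site, stood at 42.8, 44.9 and 23.5 in tumor CD45+ against 26.5, 31.7 and 24.3 in tumor CD45- libraries, at 28.4, 32.03 and 25.9 in anemia CD45+ against 14.8, 16.5 and 36.1 in anemia CD45- libraries, and at 47.7, 61.6 and 37.2 in neonatal CD45+ against 30.7, 35.7 and 17.6 in neonatal CD45- libraries. Its libraries were separate in neonates only, where the adjusted p was 0.0511. Psmb7 stood at 72.04, 65.2 and 29.7 in tumor CD45+ against 53.96, 47.6 and 68.9 in tumor CD45- libraries, at 32.7, 30.95 and 32.9 in anemia CD45+ against 41.00, 33.4 and 72.97 in anemia CD45- libraries, and at 50.4, 77.7 and 41.7 in neonatal CD45+ against 55.2, 60.1 and 44.5 in neonatal CD45- libraries, and its libraries were separate in anemia only, with CD45+ below CD45-.

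**Figure D5:**
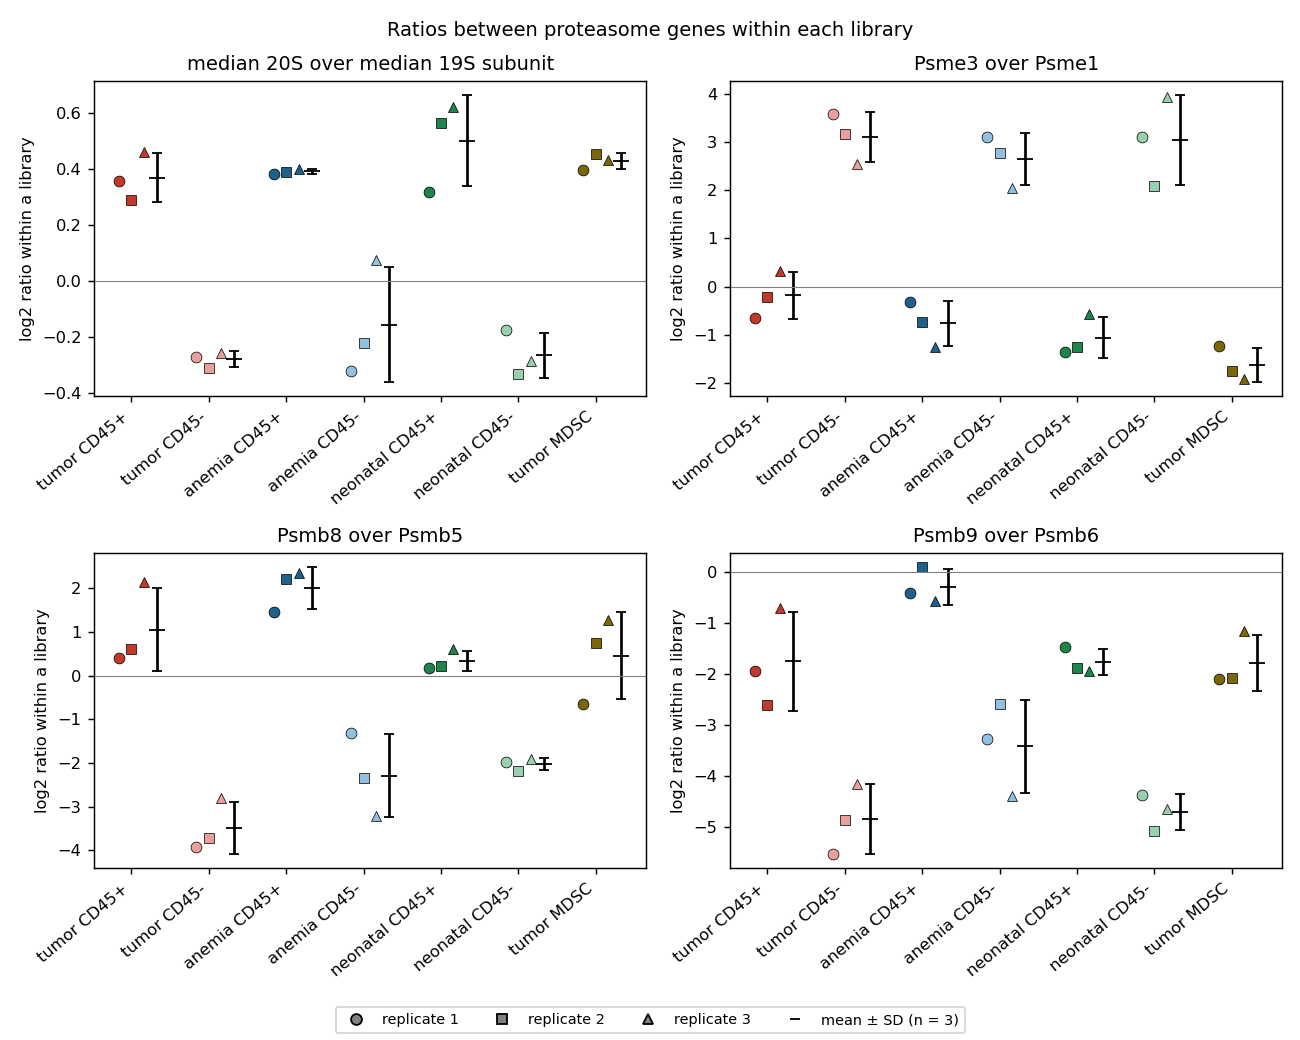
Log2 ratios within each library by group: median 20S over median 19S subunit, Psme3 over Psme1, Psmb8 over Psmb5 and Psmb9 over Psmb6, with mean ± SD of 3 libraries. CD45- libraries stand apart from CD45+ and MDSC libraries in the first 2 panels, and the inducible over constitutive ratios are higher in CD45+ than in CD45- libraries in every state.

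Of the 3 assembly chaperones of the 19S base, 1 fell in tumor, 2 in anemia and 1 in neonatal CD45+ cells, and 0 rose. Psmd9 fell in all 3 states, with log2 fold changes of -0.93, -1.46 and -1.21 (SE 0.33 each; adjusted p = 0.0227, 0.00124 and 0.00479). It stood at 7.15, 9.83 and 3.51 in tumor CD45+ against 10.8, 15.5 and 13.2 in tumor CD45- libraries. In anemia it was 5.08, 4.68 and 4.63 in CD45+ against 11.5, 12.6 and 22.6 in CD45- libraries, and in neonates 5.81, 9.27 and 4.41 in CD45+ against 15.8, 19.9 and 12.5 in CD45- libraries. The libraries were separate in each state. The tumor call ended without tumor CD45+ replicate 3 (-0.58, adjusted p = 0.143) and without tumor CD45- replicate 2 (-0.81, adjusted p = 0.0817), whereas those in anemia and neonates held in all 27 alternatives.

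Psmd5 fell in anemia, at 7.98, 7.41 and 3.80 in CD45+ against 14.2, 12.1 and 14.5 in CD45- libraries (-1.03, SE 0.27, adjusted p = 0.00361), and this call held in all 27 alternatives. It stood at 7.79, 7.36 and 5.82 in tumor CD45+ against 9.57, 10.8 and 14.1 in tumor CD45- libraries and at 3.18, 6.105 and 5.81 in neonatal CD45+ against 6.999, 7.87 and 7.48 in neonatal CD45- libraries. Those libraries were separate too, with log2 fold changes of -0.64 and -0.52 (adjusted p = 0.0503 and 0.104). Psmd10, also known as gankyrin, did not pass in any state, with log2 fold changes of -0.41, -0.41 and -0.29.

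Of the genes that only share the naming pattern, Psmc3ip fell in anemia, at 2.80, 2.79 and 2.35 in CD45+ against 6.80, 5.71 and 16.3 in CD45- libraries (-1.41, SE 0.36, adjusted p = 0.00278). It stood at 5.505, 6.44 and 2.81 in tumor CD45+ against 4.44, 7.67 and 12.1 in tumor CD45- libraries and at 3.76, 4.74 and 3.99 in neonatal CD45+ against 5.71, 5.96 and 4.99 in neonatal CD45- libraries, and passed in neither. Psme2b rose in anemia, at 6.24, 11.6 and 3.93 in CD45+ libraries, against a listing at 0 in 2 CD45- libraries and 1.78 in replicate 3 (adjusted p = 0.00444). The call ended with quantile normalization (adjusted p = 0.0627). Psme2b was at 1.46, 2.47 and 7.81 in tumor CD45+ against 0, 1.87 and 0.687 in tumor CD45- libraries and at 3.79, 1.07 and 1.53 in neonatal CD45+ against 4.94, 4.89 and 0 in neonatal CD45- libraries, where 0 is a listing at 0, and these libraries overlapped. Being a near copy of Psme2, it may hold reads of that gene, and its values are uncertain.

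The next question was whether the CD45 difference itself changed with the state of the mice. In the tests of that difference 0 of the 40 genes passed, against 2.19% of all tested genes for tumor minus anemia, 1.08% for tumor minus neonatal and 6.92% for anemia minus neonatal. At an unadjusted p under 0.05 there were 0, 0 and 2 genes. The 2 were Psmb5, with a difference of -1.39 (SE 0.52, adjusted p = 0.132), and Psme2b, with 2.60 (SE 0.94, adjusted p = 0.116). The rise of Psmb5 in neonates is thus not shown to differ from the other states.

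Among CD45+ cells the values of most proteasome genes were lowest in anemic mice, although few passed. For tumor over anemia CD45+ cells 0 of 40 genes passed, against 10.7% of all tested genes, and 3 had an unadjusted p under 0.05 (Psma6, Psmd13 and Psme2). The core subunits had a median log2 fold change of 0.40 and 30 of 31 were positive, against a median of all genes of -0.03. For anemia over neonatal CD45+ cells 0 genes rose, against 9.08%, and 2 fell, against 11.3%, and the core median was -0.52 with 1 of 31 positive. For tumor over neonatal CD45+ cells 0 passed, against 6.61%, 1 had an unadjusted p under 0.05 (Psmb5), and the core median was -0.10 with 5 of 31 positive. These 3 comparisons share their samples pairwise.

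The 2 genes lower in anemia than in neonates were Psma6 (-1.10, SE 0.33, adjusted p = 0.0263) and Psmb5 (-1.15, SE 0.37, adjusted p = 0.0342). Psma6 stood at 29.8, 33.3 and 42.8 in anemia CD45+ against 71.3, 80.7 and 76.5 in neonatal CD45+ libraries. Psmb5 stood at 18.6, 11.5 and 8.09 in anemia CD45+ against 30.8, 30.0 and 23.6 in neonatal CD45+ libraries. Each group of libraries was separate, but the call of Psma6 ended in 5 and that of Psmb5 in 8 of the 27 alternatives, with adjusted p of up to 0.102 and 0.132. Neutrophil granule markers moved with this comparison, at 541.6 to 2860 in anemia against 9554 to 11943 in neonatal CD45+ libraries, as did B cell markers, at 629 to 776 against 89.2 to 299, and their part in it was not tested.

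With replicates 1 and 2 alone, 18 core subunits rose and 0 fell in tumor over anemia CD45+ cells, and 0 rose and 19 fell in anemia over neonatal CD45+ cells. The core medians were then 0.61 and -0.63. The shares of all tested genes in this setting are not given here. The number of genes that passed thus differed with and without replicate 3, while the sign of the core median was the same.

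Among CD45- cells 0 of the 40 genes passed in tumor over anemia (0.152% of all tested genes), tumor over neonatal (2.54%) and anemia over neonatal cells (4.33%). At an unadjusted p under 0.05 there were 1 (Psme2), 0 and 1 (Psmd5). The core medians were 0.12, 0.09 and 0.01 log2 units. Without replicate 3 of every group the count in anemia over neonatal CD45- cells was 1 higher and 19 lower, with a core median of -0.54. The share of all tested genes in that setting is not given here.

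The last comparisons set Ter119+CD71+ cells of tumor-bearing mice against MDSC, also of tumor-bearing mice. In tumor CD45+ cells only Psme3 passed, with 1 gene higher against 5.42% of all 10251 genes tested and 0 lower against 0.995%. Psme3 stood at 36.8, 45.7 and 81.3 in tumor CD45+ cells, against 22.0, 18.98 and 16.5 in MDSC (log2 fold change 1.39, SE 0.29, adjusted p = 0.0186). The call ended without MDSC replicate 2 (adjusted p = 0.0717) or 3 (0.0895). Summed erythroid markers moved with it, at 12488 to 18511 in tumor CD45+ against 81.0 to 1381 in MDSC libraries, as did B cell markers, at 103 to 444 against 6.20 to 10.5, and their part in it was not tested. Psme1 stood at 52.2, 64.04 and 62.5 in MDSC, Psma6 at 69.04, 91.4 and 97.6 and Psmb5 at 42.00, 18.2 and 10.7, within or overlapping the range of tumor CD45+ libraries. Psme1 and Psme2 differed by -0.02 and 0.05 (SE 0.31 and 0.29), and the core subunits had a median of 0.00 with a range from -0.45 (Psmb5) to 0.34 (Psma3).

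In tumor CD45- cells against MDSC 4 genes rose, against 14.3% of all tested genes, and 6 fell, against 42.1%. Psme3 was the highest, at 165.9, 170.7 and 211.0 in CD45- cells against 22.0, 18.98 and 16.5 in MDSC (3.19, SE 0.29, adjusted p = 3.93e-06), and held in all 18 alternatives. Psme1 fell by 1.45 and Psme2 by 1.25 (adjusted p = 0.00212 and 0.0039). In the 20S particle Psma6 fell by 1.36, Psmb3 by 1.02, Psma7 by 0.84 and Psma4 by 0.76 (adjusted p = 0.00114, 0.0209, 0.012 and 0.035). Of the 19S genes Psmd4, a ubiquitin receptor, rose by 0.68, Psmc6 by 0.63 and the chaperone Psmd5 by 0.68 (adjusted p = 0.0175, 0.0455 and 0.0263). Several of these calls were unstable: of 18 alternatives each, Psmc6 was lost in 11, Psma4 in 9, Psmb3 in 7, Psmd5 in 5, Psma7 in 2, and Psma6, Psmd4 and Psme2 in 1. Median-ratio scaling gave -0.06 for Psma4, -0.31 for Psmb3, -0.13 for Psma7 and -0.65 for Psma6, and leaving out tumor CD45- replicate 3 gave 0.40 for Psmc6. Outside the naming pattern the 19S subunit Shfm1 fell by 3.12, from a mean of 94.0 in MDSC to 11.1 in tumor CD45- cells (adjusted p = 1.19e-04). The 19S subunit Adrm1 did not pass, with 0.28 (adjusted p = 0.432). Among the core subunits the split again ran between the particles, with medians of -0.35 for alpha and -0.41 for beta subunits. The medians were 0.21 for ATPases and 0.16 for non-ATPases. The counts of genes called higher and lower changed with the scaling. They were 22 and 2 with median-ratio scaling, 12 and 4 with quantile normalization, and 16 and 2 with haemoglobin genes left out. The shares of all tested genes called under these scalings are not given here, so these counts are not set against a background. Summed erythroid markers moved with this comparison, at 57858 to 167724 in tumor CD45- libraries against 81.0 to 1381 in MDSC libraries, and so did neutrophil granule markers, at 33.3 to 373.0 against 44923 to 69779, and their part in it was not tested.

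Other genes of the pathway were read from lists of their roles. Of 7 assembly factors outside the naming pattern 4 rose and 1 fell in tumor, 1 rose and 0 fell in anemia, and 4 rose and 1 fell in neonatal CD45+ cells. Of all tested genes 50.2%, 47.4% and 49.6% rose and 10.9%, 11.3% and 10.3% fell in these states, so that the count of rises in tumor and neonatal cells was near the background. Psmg1, a chaperone of alpha ring assembly, rose by 1.59 in tumor and 1.67 in neonatal CD45+ cells (adjusted p = 0.00145 and 0.00101), and Pomp, which matures the beta ring, by 1.03 and 1.60 (adjusted p = 0.0429 and 0.00367). Akirin2, needed for import of proteasomes into the nucleus, fell by 1.17 and 1.20 in these states (adjusted p = 0.00186 and 0.00150). Psmf1, which encodes the proteasome inhibitor PI31, fell in all 3 states, by 1.30, 1.30 and 1.33 (adjusted p = 0.00123, 0.00125 and 0.00106). It stood at 8.29, 5.97 and 8.94 in tumor CD45+ against 24.9, 17.1 and 19.6 in tumor CD45- libraries.

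Against these shares of all genes, of 9 regulators of proteasome gene transcription 2, 3 and 2 rose and 0 fell in tumor, anemia and neonatal CD45+ cells. Nfe2l1, the factor that raises proteasome genes when the proteasome is inhibited, was not among them, with -0.29, 0.45 and 0.45. Of 21 genes of the ubiquitin system with roles in erythroid cells, most of them conjugating enzymes or parts of ligases, 12, 12 and 13 fell, against 10.9%, 11.3% and 10.3% of all tested genes, and 5, 6 and 5 rose, against 50.2%, 47.4% and 49.6%. Ube2o, which tags ribosomal proteins in reticulocytes, fell by 2.53, 2.33 and 2.88 (adjusted p = 9.51e-04, 0.00189 and 3.16e-04). The erythroid markers, all 10 of which fell in each state, moved with these genes.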

How the data were processed

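RNA-seq values of 21 libraries in 7 groups of 3 were read from one table of log2 expression values per gene as deposited by the authors, with 14273 genes. Bowtie 0.12.2 and build mm8 are named in the submitters' processing notes; the counting tool, annotation, strand setting and scale behind the log are not given in the sources used here. Every value column was mapped to a library and 0 were unused. Blank cells (23668, or 7.90%) were taken as 0. Linear values plus a pseudocount of 1 were put back on a log2 scale, so fold changes understate those of low genes. A gene was tested if 3 or more of the fitted libraries had a value of 1 or more, with limma 3.58.1 (trend and robust, statmod 1.5.0, R 4.3.3), with Benjamini-Hochberg adjustment over all tested genes at 0.05. The 18 Ter119+CD71+ libraries were fitted together (11192 genes), and the 9 libraries of tumor-bearing mice for the MDSC comparisons (10251 genes). On simulated data 26% of genes changed by 1 log2 unit and 85% of those changed by 2 were recovered with 11192 genes.

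In 5 comparisons each same-numbered pair of libraries had correlated deviations over 0.1. These were CD45+ over CD45- cells in tumor (lowest 0.11), anemia (0.11) and neonatal mice (0.22). The others were tumor CD45+ cells over neonatal CD45+ cells (0.11) and over MDSC (0.17). Replicate 1 of the first group and replicate 2 of the second reached 0.14 in tumor CD45+ over CD45- cells and 0.11 in anemia. In tumor over neonatal CD45+ cells that pair reached 0.26. In neonatal CD45+ over CD45- cells and in tumor CD45+ cells over MDSC, unlike-numbered pairs reached at most 0.11 and 0.086. There every same-numbered pair was higher. Whether libraries are paired by replicate number was thus not settled, and the replicate block is given as an alternative. Any gene of the naming rule could be named, and values in every library were given for the activators, for Psmb5, Psmb6 and Psmb7, and for genes at the extremes of the comparisons. The genes and lists were chosen with earlier results of these data known. Alternatives were median-ratio scaling, quantile normalization, haemoglobin genes left out of the library sum, no filter, genes with a value in every library alone, a pseudocount of 0.1, the replicate block, other fits and leaving out each library.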

Additional observations from a re-analysis of the deposited data

How the results depend on the processing

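The tally for single genes covered 280 fold changes, those of every called gene and of Psmb6, Psmb7 and Psme4. The other tested genes were not tallied. Of the 7186 values of these 280 under the alternatives, 6604 kept their side of the threshold and their sign. A further 154 passed only under the alternative and 91 no longer passed. Another 330 turned sign without passing in either setting, and 7 turned sign and passed in one or both. Those 7 were Psma7 in tumor (-0.10) and anemia (-0.56), Psmb7 (-0.87) and Psmc3 (-0.83) in neonatal CD45+ over CD45- cells with median-ratio scaling, and Psma4 (-0.62), Psmb3 (-0.73) and Psmc3 (-0.43) in anemia over neonatal CD45- cells with replicates 1 and 2 alone, an alternative chosen after seeing the data. The cause was not tested. Counts of genes called out of 40 moved as follows, and the shares of all tested genes under these alternatives are not given here. With median-ratio scaling they were 26, 32 and 21 for CD45+ over CD45- cells in tumor, anemia and neonatal mice, 2 for tumor over anemia CD45+, 1 for anemia over neonatal CD45+ and 24 for tumor CD45- cells over MDSC. With quantile normalization they were 13 in tumor, 3 for tumor over anemia CD45+, 4 for anemia over neonatal CD45+ and 16 for tumor CD45- cells over MDSC. With haemoglobin genes left out these were 14, 1, 1 and 18. The fit of all 21 libraries gave 1 for anemia over neonatal CD45+, and no filter gave 1 for the difference of anemia minus neonatal. With replicates 1 and 2 alone they were 17, 19 and 17 in the 3 states, 22, 2 and 22 for tumor over anemia, tumor over neonatal and anemia over neonatal CD45+, 2, 5 and 20 for the same among CD45-, 3 for the difference of tumor minus anemia, 1 for that of anemia minus neonatal, and 19 for tumor CD45- cells over MDSC.

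Leaving out 1 library at a time gave 5 to 9, 7 to 13 and 8 to 13 in the 3 states, 0 to 3 for tumor over anemia CD45+ (3 without tumor CD45+ replicate 3), 0 to 5 for anemia over neonatal CD45+ (5 without anemia CD45- replicate 3), 0 to 1 for anemia over neonatal CD45- and for the difference of anemia minus neonatal, 0 to 1 for tumor CD45+ cells over MDSC and 6 to 11 for tumor CD45- cells over MDSC (6 without tumor CD45- replicate 2 or MDSC replicate 2). With the replicate block 4 rose and 2 fell in tumor, 3 and 7 in anemia, and 8 and 2 in neonatal CD45+ cells, and the block ended 1 call, that of Psmc6 in tumor CD45- cells over MDSC (adjusted p = 0.0511). Read depth is unknown, so how depth limits low genes such as Psme2b could not be measured.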
